A study of Mus musculus with 5 samples.

Results

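The genes described here are 35 genes of the skeletal muscle contractile machinery and of muscle fibre type, followed through RNA sequencing of mouse inguinal white adipose tissue, written iWAT, which is fat from under the skin of the groin. They were chosen by name, and all 35 were found among the 53700 genes of the vehicle and T3 table and among the 55416 genes of the high-fat diet table. Of the 35, 14 are fast-fibre isoforms, 6 are slow-fibre isoforms and 15 are used by both fibre kinds. By role, 8 belong to the thick filament, 9 to the thin filament, 9 to the Z-disc and titin, 5 to calcium handling and 4 to energy and oxygen supply.

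The study asked, per its title, what thyroid hormone receptor β (TRβ, gene Thrb) of adipocytes does for the use of glucose. Group ATRβKO (T3) holds mice without TRβ in adipocytes that were given T3 (triiodothyronine, the active thyroid hormone). Group Floxed (T3) holds mice of the control genotype, in which the target gene is flanked by recombination sites, given the same hormone, and group Floxed (Veh) holds floxed mice given PBS. These mice ate normal food, received 7 daily injections and were sampled 24 hours after the last one, and each of the 3 libraries was made from the pooled iWAT of 3 mice. Group Floxed (HFD) holds floxed mice fed a high-fat diet for 2 to 3 months, and the labels do not say whether its tissue was pooled. The labels used here give neither the strain, age or sex of the mice nor the Cre driver of the knockout. Each group has 1 library, so there is no spread between animals, no error and no test for any difference below.

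The levels are FPKM, in which fragments are divided by gene length and library size, a scale that can be compared between genes of different length. The 4 libraries summed to between 748645 and 787969 FPKM over all genes. Thrb was at 4.26 FPKM in the library labelled ATRβKO (T3), at 4.43 FPKM in Floxed (T3) and at 4.44 FPKM in Floxed (Veh). A level over the whole gene in whole tissue does not check a deletion that is limited to adipocytes, and here it was not lower by the size rule used below. The fifth library, labelled ATRβKO (HFD), summed to 1891065 FPKM and had Thrb at 170.1 FPKM, against 4.38 FPKM in Floxed (HFD). It enters no comparison here.

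Skeletal muscle shortens when myosin of the thick filament pulls on actin of the thin filament. Calcium released from the sarcoplasmic reticulum frees the thin filament through troponin, and a calcium pump returns the calcium to the store. Fast and slow fibres build this machine from different genes for the same part, so the genes tell the fibre kinds apart. In mouse and rat muscle, thyroid hormone is known as a driver of the fast programme, raising the fast calcium pump gene Atp2a1 and lowering the slow myosin gene Myh7. Fat cells have no sarcomeres, and a piece of iWAT can hold muscle fibres next to the fat.

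The starts of 28 of the 35 genes have a promoter window in RefSeq for the mouse build GRCm38.p6. No window was found for Tnnt3, Tnni2, Actn3, Tcap, Myoz1, Neb or Myot. Over the 250 bases before the start, both strands were searched for CAGCTG (the E-box bound by the MyoD family of muscle factors), the consensus of the muscle factor MEF2, TATAAA (the TATA box) and AGGTCA (the half-site of nuclear receptors, the thyroid hormone receptors among them). CAGCTG stood in 14 of 28 windows (50%), against 11.6% of the windows of 17492 protein-coding genes. It was as frequent in fast (5 of 10), slow (3 of 6) and shared genes (6 of 12). The MEF2 consensus stood in 5 of 28 (17.9%), those of Myh1, Myh4, Pvalb, Myoz2 and Ttn, against 1.64% of protein-coding genes. TATAAA stood in 5 of 28 (17.9% against 12.4%) and AGGTCA in 3 of 28 (10.7% against 12.6%), those of Atp2a1, Eno3 and Actn2. A match says only that the letters are present.

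Windows of 6 genes are shown as examples of fast, slow and shared genes that carry these motifs, picked after the matches were known. Each runs 5′ to 3′ on the gene's own strand and ends at the base before the start. Capitals mark CAGCTG in every window, and also the MEF2 consensus in Myh4 and Myoz2, TATAAA on the strand shown in Myh4 and the half-site of Atp2a1, which reads TGACCT because it lies on the other strand. The windows are those of Myh4, the main fast myosin heavy chain (chr11:67237562-67237811, plus strand), Mylpf, a fast myosin light chain (chr7:127211358-127211607, plus strand), Atp2a1, the fast calcium pump (chr7:126463074-126463323, minus strand), Ckm, the cytosolic creatine kinase of both fibre kinds (chr7:19410844-19411093, plus strand), Myoz2, a slow-fibre Z-disc gene (chr3:123034988-123035237, minus strand), and Tnni1, the slow troponin I (chr1:135799171-135799420, plus strand).
Myh4: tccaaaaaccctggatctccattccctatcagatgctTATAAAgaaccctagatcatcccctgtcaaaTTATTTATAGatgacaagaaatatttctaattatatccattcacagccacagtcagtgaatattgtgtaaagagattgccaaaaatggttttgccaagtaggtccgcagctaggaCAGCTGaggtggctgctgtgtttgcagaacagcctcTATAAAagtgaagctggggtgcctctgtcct
Mylpf: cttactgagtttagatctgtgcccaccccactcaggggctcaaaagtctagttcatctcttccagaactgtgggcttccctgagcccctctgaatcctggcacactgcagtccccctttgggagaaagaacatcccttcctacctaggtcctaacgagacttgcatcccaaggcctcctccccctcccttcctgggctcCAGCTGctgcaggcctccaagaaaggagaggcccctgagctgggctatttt
Atp2a1: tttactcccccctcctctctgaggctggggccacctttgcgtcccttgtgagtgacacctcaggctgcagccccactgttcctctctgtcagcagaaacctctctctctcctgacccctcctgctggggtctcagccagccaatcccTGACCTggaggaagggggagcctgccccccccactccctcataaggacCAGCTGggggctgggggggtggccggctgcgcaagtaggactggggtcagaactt
Ckm: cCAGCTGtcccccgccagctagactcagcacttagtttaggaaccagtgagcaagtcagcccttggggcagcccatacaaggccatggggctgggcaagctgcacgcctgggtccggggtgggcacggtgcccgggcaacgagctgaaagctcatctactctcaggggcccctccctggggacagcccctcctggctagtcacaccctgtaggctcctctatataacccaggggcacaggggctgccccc
Myoz2: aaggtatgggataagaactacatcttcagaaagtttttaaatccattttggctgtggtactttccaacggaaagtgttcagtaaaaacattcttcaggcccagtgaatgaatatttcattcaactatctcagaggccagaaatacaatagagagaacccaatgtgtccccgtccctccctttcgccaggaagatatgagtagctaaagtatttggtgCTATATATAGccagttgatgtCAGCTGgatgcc
Tnni1: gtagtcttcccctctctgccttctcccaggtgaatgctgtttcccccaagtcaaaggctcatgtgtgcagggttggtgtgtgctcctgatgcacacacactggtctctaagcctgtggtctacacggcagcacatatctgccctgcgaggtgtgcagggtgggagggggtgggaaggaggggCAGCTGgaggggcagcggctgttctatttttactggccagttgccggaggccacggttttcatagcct

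In Myh4 the MEF2 match begins 182 bases before the start, CAGCTG 67 bases and the last TATAAA 31 bases before it. A further TATAAA on the other strand, 179 bases before the start, lies inside the MEF2 match, and Myh1 has the same overlap. CAGCTG begins 51 bases before the start of Mylpf, 55 before Atp2a1, 249 before Ckm, 12 before Myoz2 and 68 before Tnni1. The Atp2a1 half-site begins 103 bases before the start, and the Myoz2 MEF2 match 33 bases before it. The windows of Myh2 (from base 67170777), Myh1 (from base 67199852) and Myh4 (from base 67237562) follow one another on the plus strand of chromosome 11. These 3 heavy chain genes are close copies, and reads can be shared or split between them.

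The muscle genes made up 0.501% of all FPKM in the library labelled ATRβKO (T3), 0.112% in Floxed (T3) and 0.487% in Floxed (Veh). Their sum was 3753 FPKM in the library labelled ATRβKO (T3), 881 FPKM in Floxed (T3) and 3664.5 FPKM in Floxed (Veh). The T3-treated floxed pool was thus the low one of the 3, and 32 of the 35 genes had their lowest level there. The exceptions were all slow-fibre genes, with Tnni1 and Myh7 lowest in the library labelled ATRβKO (T3) and Tnnt1 lowest in Floxed (Veh). Most genes of any kind were also low in Floxed (T3). Among genes reaching 1 FPKM in either library compared, 10920 of 15031 lay below Floxed (Veh) there. Against ATRβKO (T3), 10540 of 14988 lay below. How many of all genes were lowest in Floxed (T3) of the 3 pools was not counted. At 100 FPKM or more stood 12 members in the library labelled ATRβKO (T3), 3 in Floxed (T3) and 11 in Floxed (Veh). Exons of 16 members overlap those of a gene on the opposite strand, and whether reads were counted by strand is not given in the sources used here, so these levels can hold reads of the neighbour. In whole tissue, fewer muscle fibres in a pool and less RNA per fibre cannot be told apart.

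**Figure D1:**
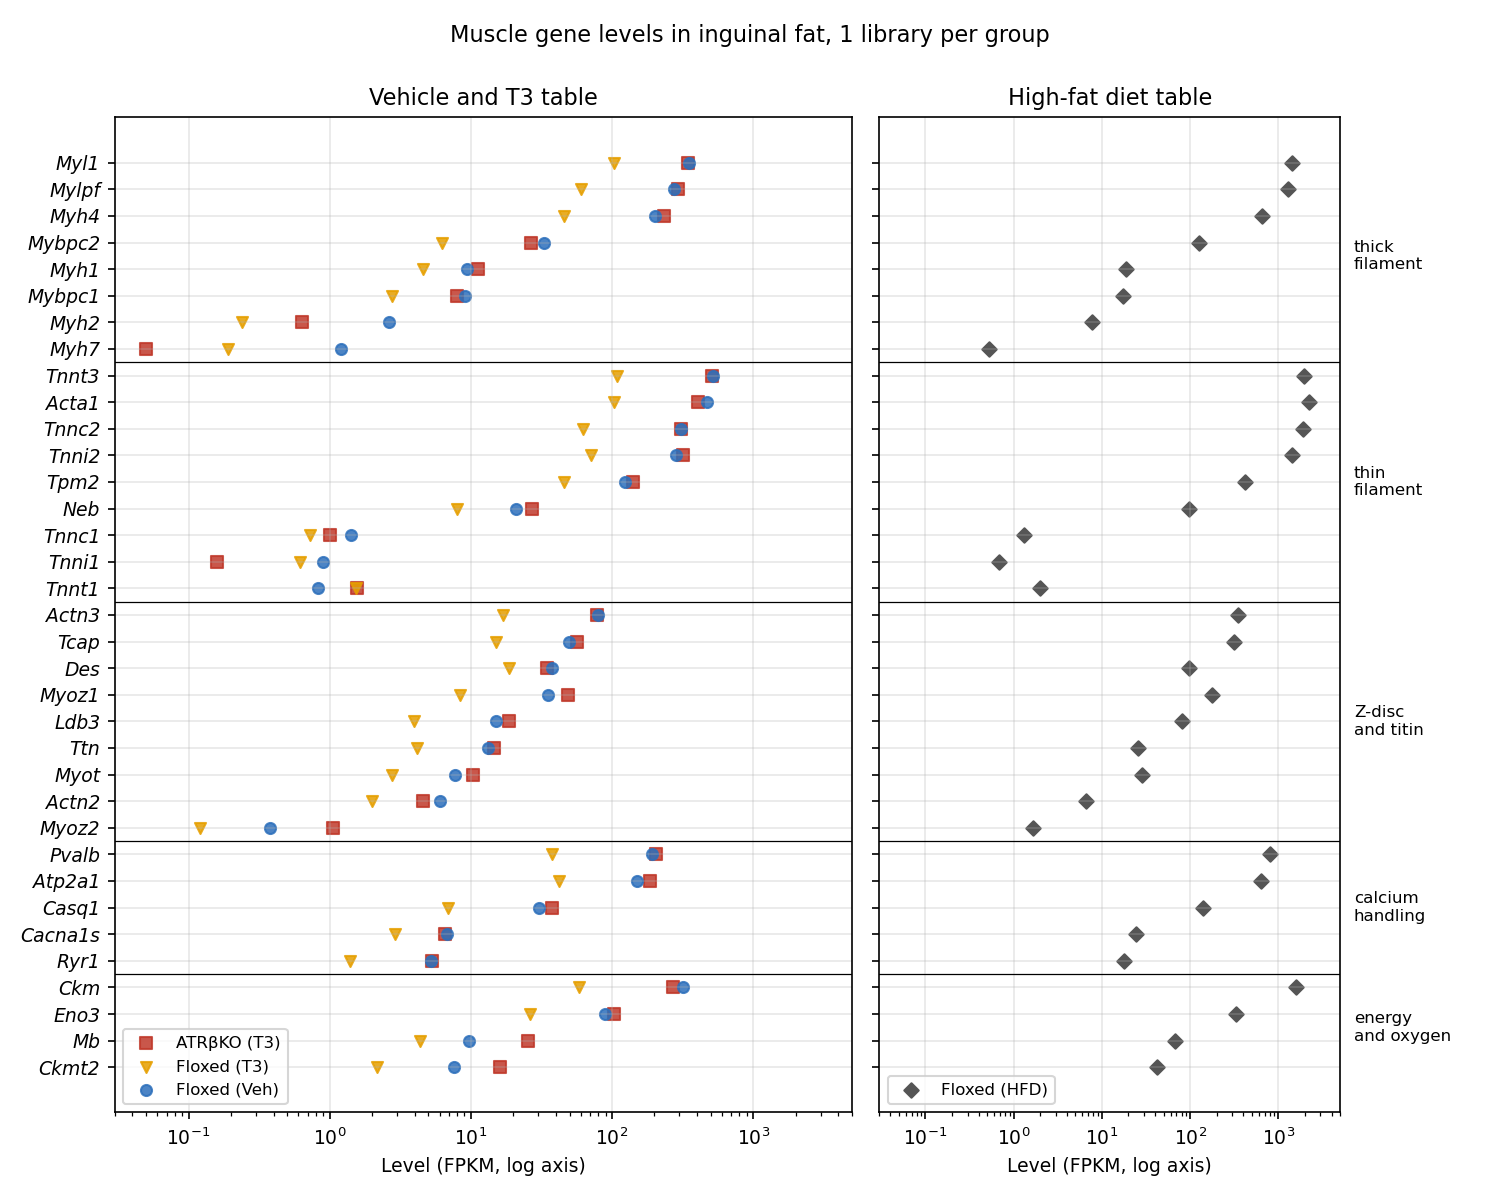
Level of each of the 35 genes on a log axis of FPKM, grouped by role, 1 point per library. The Floxed (T3) triangles lie to the left of both other libraries for 32 genes, while the points of ATRβKO (T3) and Floxed (Veh) mostly overlap, and the slow-fibre genes Myh7, Tnni1, Tnnt1, Tnnc1 and Myoz2 stand at the low end in all panels.

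The myosin heavy chains, the motor proteins, were nearly all of one kind. Myh4 (ENSMUSG00000057003), the IIB chain of the fastest fibres, was at 233 FPKM in the library labelled ATRβKO (T3), 45.8 FPKM in Floxed (T3) and 201 FPKM in Floxed (Veh). Myh1, the IIX chain, was at 11.2 FPKM in the library labelled ATRβKO (T3), 4.58 FPKM in Floxed (T3) and 9.34 FPKM in Floxed (Veh). Myh2, the IIA chain of fast oxidative fibres, was at 0.64 FPKM in the library labelled ATRβKO (T3), 0.24 FPKM in Floxed (T3) and 2.64 FPKM in Floxed (Veh). Myh4 and Myh1 were high in the same pools, whereas Myh2 stood below vehicle in both T3 pools. Myh7 (ENSMUSG00000053093), the slow chain, was at 0.05 FPKM in the library labelled ATRβKO (T3), 0.19 FPKM in Floxed (T3) and 1.2 FPKM in Floxed (Veh), so it also was highest with vehicle. The light chains, which stiffen and tune the myosin head, went with Myh4. Myl1, a fast light chain gene, had 343 FPKM in the library labelled ATRβKO (T3), 103 FPKM in Floxed (T3) and 353 FPKM in Floxed (Veh). Mylpf had 294 FPKM in the library labelled ATRβKO (T3), 59.8 FPKM in Floxed (T3) and 273 FPKM in Floxed (Veh). The myosin-binding proteins C brace the thick filament. Their fast gene Mybpc2 was at 26.65 FPKM in the library labelled ATRβKO (T3), 6.27 FPKM in Floxed (T3) and 33.1 FPKM in Floxed (Veh). The slow gene Mybpc1 was at 7.95 FPKM in the library labelled ATRβKO (T3), 2.76 FPKM in Floxed (T3) and 9.02 FPKM in Floxed (Veh), the highest level of the 6 slow genes in each pool.

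Troponin, the calcium switch of the thin filament, has 3 subunits with a fast and a slow gene each. Fast troponin T, Tnnt3 (ENSMUSG00000061723), was the highest member outside the diet library, at 510.2 FPKM in the library labelled ATRβKO (T3), 109 FPKM in Floxed (T3) and 517 FPKM in Floxed (Veh). Fast troponin I, Tnni2, was at 316 FPKM in the library labelled ATRβKO (T3), 71.3 FPKM in Floxed (T3) and 282 FPKM in Floxed (Veh). Fast troponin C, Tnnc2, was at 307 FPKM in the library labelled ATRβKO (T3), 62.05 FPKM in Floxed (T3) and 309 FPKM in Floxed (Veh). All fast subunits were low in the same single pool, and between the other pools each differed by less than 1.5-fold. The slow subunits did not share that order. Slow troponin T, Tnnt1, was at 1.57 FPKM in the library labelled ATRβKO (T3), 1.53 FPKM in Floxed (T3) and 0.82 FPKM in Floxed (Veh). Slow troponin I, Tnni1, was at 0.16 FPKM in the library labelled ATRβKO (T3), 0.62 FPKM in Floxed (T3) and 0.89 FPKM in Floxed (Veh). Tnnc1, the troponin C of slow and heart muscle, was at 1 FPKM in the library labelled ATRβKO (T3), 0.73 FPKM in Floxed (T3) and 1.41 FPKM in Floxed (Veh). These levels rest on few fragments, and the counting error is large. The low edge (percentile 2) of FPKM times length in low single-exon genes was taken as 1 fragment. On that scale the 3 slow troponin genes stand for about 3.48 to 19.1 fragments a library, and Tnnt3 for about 1201 to 5561.

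Actin and its partners followed the fast troponins. Acta1, skeletal muscle actin, was at 409.6 FPKM in the library labelled ATRβKO (T3), 104 FPKM in Floxed (T3) and 472 FPKM in Floxed (Veh). Tpm2, a tropomyosin that smooth muscle also makes, was at 139.7 FPKM in the library labelled ATRβKO (T3), 45.4 FPKM in Floxed (T3) and 123 FPKM in Floxed (Veh). Neb, the nebulin ruler of the thin filament, was at 27.1 FPKM in the library labelled ATRβKO (T3), 8 FPKM in Floxed (T3) and 20.8 FPKM in Floxed (Veh). All these genes were lowest in Floxed (T3), with the other pools near each other.

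At the Z-disc, where thin filaments are anchored, the fast α-actinin gene was the most abundant in the library labelled ATRβKO (T3) and in Floxed (Veh), and Des in Floxed (T3). Actn3 was at 78.0 FPKM in the library labelled ATRβKO (T3), 16.8 FPKM in Floxed (T3) and 79.7 FPKM in Floxed (Veh). Myoz1, the fast myozenin that ties α-actinin to calcineurin, was at 48.8 FPKM in the library labelled ATRβKO (T3), 8.40 FPKM in Floxed (T3) and 35.4 FPKM in Floxed (Veh). Myoz2, its slow and cardiac counterpart, was at 1.06 FPKM in the library labelled ATRβKO (T3), 0.12 FPKM in Floxed (T3) and 0.38 FPKM in Floxed (Veh). Both myozenin genes were highest in the library labelled ATRβKO (T3), though Myoz2 stands for about 2.95 fragments in Floxed (T3). Tcap, the cap of titin, had 56.3 FPKM in the library labelled ATRβKO (T3), 15.1 FPKM in Floxed (T3) and 49.9 FPKM in Floxed (Veh). Des, the intermediate filament desmin of all muscle kinds, smooth muscle included, had 34.8 FPKM in the library labelled ATRβKO (T3), 18.7 FPKM in Floxed (T3) and 37.5 FPKM in Floxed (Veh), a narrower range than most. Ldb3, Ttn, Myot and Actn2, which hold the Z-disc and span the sarcomere, lay between 4.61 and 18.7 FPKM in the library labelled ATRβKO (T3), between 2.00 and 4.18 FPKM in Floxed (T3) and between 6.07 and 15.04 FPKM in Floxed (Veh).

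The calcium handling genes given here were lower in Floxed (T3) than in the library labelled ATRβKO (T3) and in Floxed (Veh). Pvalb, parvalbumin, which buffers calcium in fast fibres, was at 205 FPKM in the library labelled ATRβKO (T3), 37.8 FPKM in Floxed (T3) and 193 FPKM in Floxed (Veh). Atp2a1, the pump that refills the store in fast fibres, was at 186 FPKM in the library labelled ATRβKO (T3), 42 FPKM in Floxed (T3) and 149.6 FPKM in Floxed (Veh). Casq1, calsequestrin, which holds calcium inside the store, was at 37.8 FPKM in the library labelled ATRβKO (T3), 6.88 FPKM in Floxed (T3) and 30.2 FPKM in Floxed (Veh). The lowest levels in this role were those of the channels themselves. Ryr1, the release channel, was at 5.32 FPKM in the library labelled ATRβKO (T3), 1.40 FPKM in Floxed (T3) and 5.19 FPKM in Floxed (Veh). Cacna1s, the voltage sensor that opens it, was at 6.56 FPKM in the library labelled ATRβKO (T3), 2.92 FPKM in Floxed (T3) and 6.73 FPKM in Floxed (Veh).

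Energy genes split into a pair near its vehicle level and a pair above it in the library labelled ATRβKO (T3). Ckm (ENSMUSG00000030399) was at 271 FPKM in the library labelled ATRβKO (T3), 58.8 FPKM in Floxed (T3) and 319 FPKM in Floxed (Veh). Eno3, the muscle enolase of glycolysis, was at 103 FPKM in the library labelled ATRβKO (T3), 26.4 FPKM in Floxed (T3) and 89.7 FPKM in Floxed (Veh). Mb (ENSMUSG00000018893), myoglobin, which stores oxygen in oxidative fibres, was at 25.6 FPKM in the library labelled ATRβKO (T3), 4.34 FPKM in Floxed (T3) and 9.71 FPKM in Floxed (Veh). Ckmt2, the mitochondrial creatine kinase, was at 16.1 FPKM in the library labelled ATRβKO (T3), 2.17 FPKM in Floxed (T3) and 7.62 FPKM in Floxed (Veh). The oxidative genes Mb and Ckmt2 were thus more than 2-fold above vehicle in the library labelled ATRβKO (T3), where Ckm and Eno3 were close to it.

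The first comparison was that of T3 with vehicle in floxed mice. Genes were called by size, as higher or lower where FPKM with a pseudocount of 1 differed by a log2 ratio of 1 or more (2-fold) and the higher library reached 1 FPKM. The floor left out Tnni1 and Myoz2, and of the 33 others 27 were lower and 0 higher in Floxed (T3), while 6 differed by under 2-fold. Over all genes past the floor, 3.98% were lower and 2.3% higher by the same rule. The median log2 ratio of the members was -1.66, against -0.21 over all 15031 genes past the floor. Among fast genes 13 of 14 were lower, with a median log2 ratio of -2.05, and among shared genes 13 of 15, with a median of -1.42. Of the 4 slow genes past the floor only Mybpc1 was lower, and their median was -0.68. By role, the medians lay between -1.56 for the Z-disc and titin and -1.81 for calcium handling.

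The members furthest below vehicle were Ckm (log2 ratio -2.42), Pvalb (-2.32) and Tnnc2 (-2.30), whose plain ratios of Floxed (Veh) to Floxed (T3) were 5.43, 5.09 and 4.98. Nearest to vehicle or above it were Tnnt1 (log2 ratio 0.48), Tnnc1 (-0.48) and Myh7 (-0.89). For the last, the pseudocount hides much of the difference, since the plain ratio of Floxed (Veh) to Floxed (T3) was 6.32. Myh1 (log2 ratio -0.89), Des (-0.97) and Cacna1s (-0.98) fell just short of the size rule, and Mb (-1.004) just met it. The plain ratios of Floxed (Veh) to Floxed (T3) over the 14 fast genes ran from 2.04 for Myh1 to 11.0 for Myh2.

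The second comparison was that of genotype under T3, and it shares the Floxed (T3) library with the first. The floor left out Tnni1, Myh2 and Myh7, and of the 32 others 26 were higher and 0 lower in the library labelled ATRβKO (T3), while 6 differed by under 2-fold. Over all genes past the floor, 4.04% were higher and 2.01% lower by the same rule. The members had a median log2 ratio of 1.93, against 0.18 over all 14988 genes past the floor. All 13 fast genes past the floor were higher, with a median log2 ratio of 2.21, as were 12 of 15 shared genes, with a median of 1.65. Among the 4 slow genes past the floor only Mybpc1 was higher, and their median was 0.54. By role, the medians ran from 1.601 for the Z-disc and titin to 2.25 for energy and oxygen.

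Ckmt2 (log2 ratio 2.43, plain ratio 7.43), Pvalb (2.41, plain ratio 5.43) and Myoz1 (2.41, plain ratio 5.81) stood furthest above Floxed (T3). Tnnt1 (log2 ratio 0.02), Tnnc1 (0.21) and Des (0.86) stood nearest to it. Myoz2 (0.88), Actn2 (0.90) and Cacna1s (0.95) were also under 2-fold on this scale, although the plain ratio of Myoz2 was 8.83. The plain ratios of the 14 fast genes ran from 2.44 for Myh1 to 5.81 for Myoz1.

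The third comparison set the library labelled ATRβKO (T3) against Floxed (Veh), 2 pools that differ in both genotype and hormone. Only Tnni1 was left out by the floor, and of the 34 others 1 was higher, 2 were lower and 31 differed by under 2-fold. Over all genes past the floor, 1.83% were higher and 1.79% lower. The median log2 ratio of the members was 0.12, against -0.03 over all 15175 genes past the floor. Above vehicle were 20 of the 34 members past the floor, against 6841 of the 15175 genes. The higher gene was Mb (log2 ratio 1.31, plain ratio 2.64), and Ckmt2 came next at 0.99, with a plain ratio of 2.12. The third was Myoz2 at 0.58, which stands for about 25.8 fragments in the library labelled ATRβKO (T3) and 9.13 in Floxed (Veh). The lower genes were Myh2 (log2 ratio -1.15) and Myh7 (-1.07), with plain ratios of Floxed (Veh) to ATRβKO (T3) of 4.13 and 24.0. Actn2 followed at -0.33. For the troponin, actin and light chain genes of fast fibres the 2 pools were close, as with Tnnc2 (log2 ratio -0.01), Tnnt3 (-0.02), Myl1 (-0.04) and Mylpf (0.10).

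**Figure D2:**
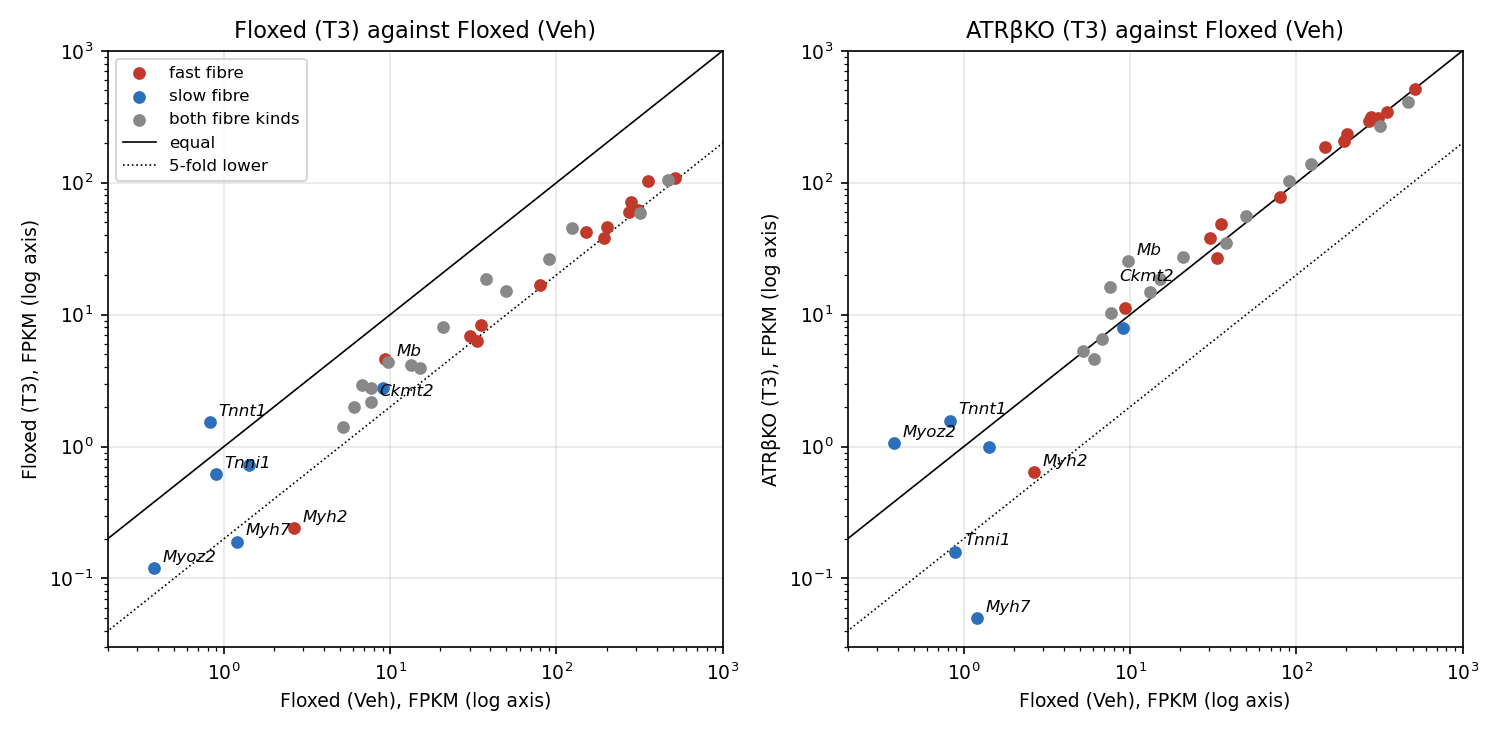
FPKM of the members in Floxed (T3) (left panel) and in ATRβKO (T3) (right panel) on the vertical axis against Floxed (Veh) on the horizontal axis, both on log axes, coloured by fibre class; the solid line marks equal levels and the dotted line 5-fold lower levels. Most genes lie between the lines in the left panel and along the line of equality in the right panel. There Mb, Ckmt2 and the low slow genes Myoz2 and Tnnt1 lie above it, and Myh2, Tnni1 and Myh7 below it.

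The spread of the log2 ratios shows how evenly the genes differed. In the comparison of Floxed (T3) with Floxed (Veh) the SD over the 33 members past the floor was 0.62, and over all genes past the floor it was 0.55. Low genes widened it, since for the 21 members that reached 10 FPKM in the higher library it was 0.38, against 0.54 over all genes that did. In the comparison of the library labelled ATRβKO (T3) with Floxed (T3) the SD was 0.65 over 32 members and 0.40 over the 25 that reached 10 FPKM, against 0.56 and 0.58 over all genes. Between the library labelled ATRβKO (T3) and Floxed (Veh) it was 0.46 over 34 members and 0.35 over the 25 that reached 10 FPKM, against 0.48 and 0.47 over all genes. These SDs are over genes, not over animals.

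Slow genes lay nearer to no difference than fast genes in both comparisons with Floxed (T3). The slow median minus the fast median was 1.37 on the log2 scale for T3 in floxed mice and -1.67 for genotype under T3. It was 0.69 and -0.96 with a floor of 5 FPKM, where the slow class is Mybpc1 alone, and 0.89 and -1.27 with a pseudocount of 0.1 FPKM, which shrinks low genes less. Against Floxed (Veh), the library labelled ATRβKO (T3) gave a difference of -0.26. In plain ratio, the library labelled ATRβKO (T3) was below Floxed (T3) for the slow genes Tnni1 (0.258) and Myh7 (0.263), while it was above for every fast gene. They stand for about 3.48 fragments against 13.6 (Tnni1) and 3.15 fragments against 12.1 (Myh7), ATRβKO (T3) against Floxed (T3) in both.

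**Figure D3:**
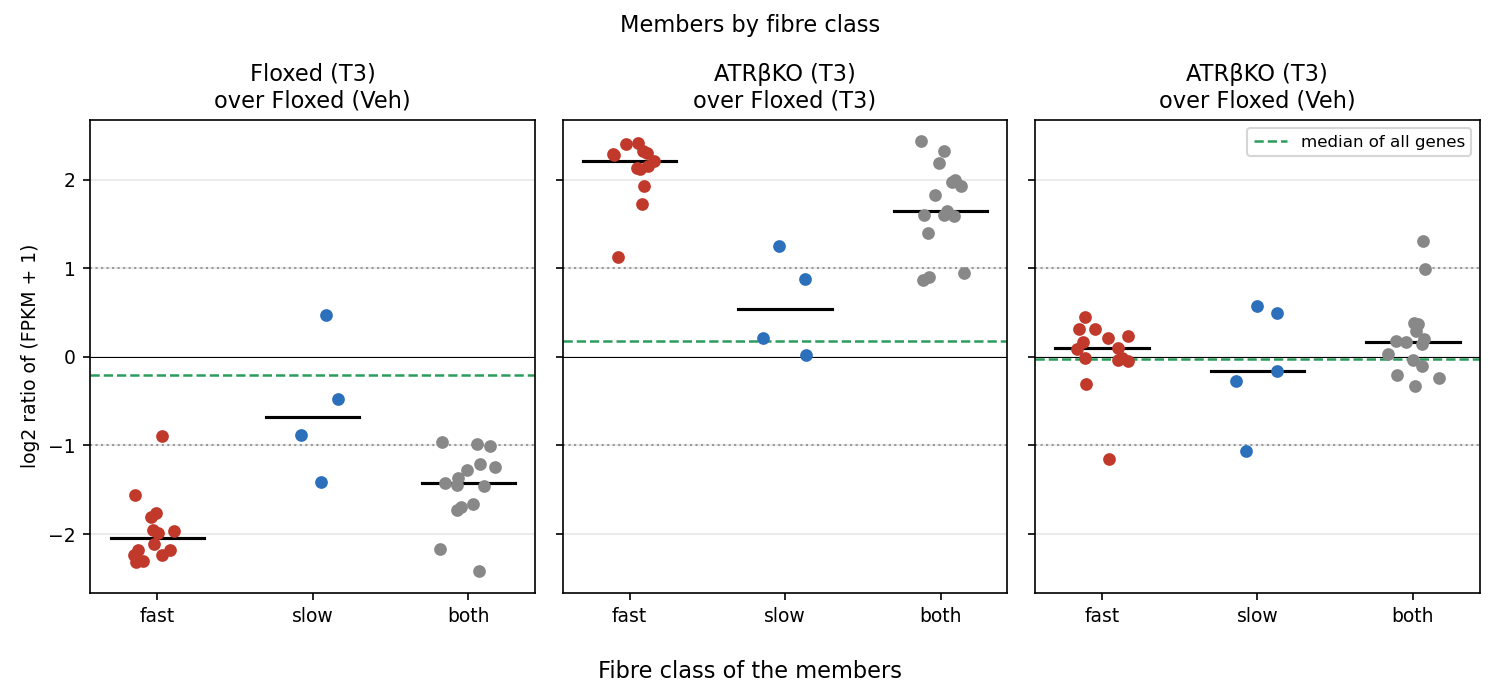
Log2 ratios of FPKM plus 1 for each member past the floor, by fibre class, in the 3 comparisons; each point is a gene, the black bar is the median of the class, the dashed line is the median of all genes and dotted lines mark 2-fold. Fast genes sit at medians of -2.05, 2.21 and 0.10, and slow genes at -0.68, 0.54 and -0.16.

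The share of the slow isoform within its own family needs no scaling between libraries. In the myosin heavy chains, Myh7 made up 0.0204% of the summed FPKM of the 4 chains in the library labelled ATRβKO (T3), 0.374% in Floxed (T3), 0.079% in Floxed (HFD) and 0.561% in Floxed (Veh). With 1 FPKM added to each chain, the share was 0.422% in the library labelled ATRβKO (T3), 2.17% in Floxed (T3), 0.227% in Floxed (HFD) and 1.01% in Floxed (Veh), highest in Floxed (T3), so the order of the Myh7 shares depends on the low Myh7 levels. Myh4 made up 95.2% in the library labelled ATRβKO (T3), 90.1% in Floxed (T3), 95.9% in Floxed (HFD) and 93.8% in Floxed (Veh). Myh1 took 4.57% in the library labelled ATRβKO (T3), 9.01% in Floxed (T3), 2.82% in Floxed (HFD) and 4.36% in Floxed (Veh), so that the IIX share was highest in Floxed (T3), the pool with the least muscle RNA. Myh2 took 0.262% in the library labelled ATRβKO (T3) and 0.472% in Floxed (T3), below the 1.16% of Floxed (HFD) and the 1.23% of Floxed (Veh). In all 4 libraries Myh4 was the main heavy chain gene.

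In the troponins the slow share was largest in Floxed (T3) for every subunit. Tnnt1 made up 0.307% of troponin T in the library labelled ATRβKO (T3), 1.38% in Floxed (T3), 0.101% in Floxed (HFD) and 0.158% in Floxed (Veh). Tnni1 made up 0.0506% of troponin I in the library labelled ATRβKO (T3), 0.862% in Floxed (T3), 0.0481% in Floxed (HFD) and 0.315% in Floxed (Veh). Tnnc1 made up 0.325% of troponin C in the library labelled ATRβKO (T3), 1.16% in Floxed (T3), 0.0687% in Floxed (HFD) and 0.454% in Floxed (Veh). Floxed (HFD), with the most fast troponin RNA, had the smallest slow share of all 3 subunits. The slow troponin genes were at 1.96 FPKM or less in all 4 libraries, so these shares largely restate the fast levels.

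Myosin-binding protein C and myozenin complete the families. Mybpc1 made up 23.0% of its pair in the library labelled ATRβKO (T3), 30.6% in Floxed (T3), 11.9% in Floxed (HFD) and 21.4% in Floxed (Veh). Mybpc1 is called the slow gene, but fast fibres also make it. Myoz2 made up 2.13% of the myozenins in the library labelled ATRβKO (T3), 1.41% in Floxed (T3), 0.918% in Floxed (HFD) and 1.06% in Floxed (Veh). With 1 FPKM added to each gene, the Myoz2 share was 3.97% in the library labelled ATRβKO (T3), 10.65% in Floxed (T3), 1.46% in Floxed (HFD) and 3.66% in Floxed (Veh), so the order of the myozenin shares rests on the few Myoz2 fragments of Floxed (T3). Over the 6 families the median slow share was 0.316% in the library labelled ATRβKO (T3), 1.27% in Floxed (T3), 0.0902% in Floxed (HFD) and 0.507% in Floxed (Veh). No share of this kind carries an error from animals, and most rest on the few slow fragments given above.

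**Figure D4:**
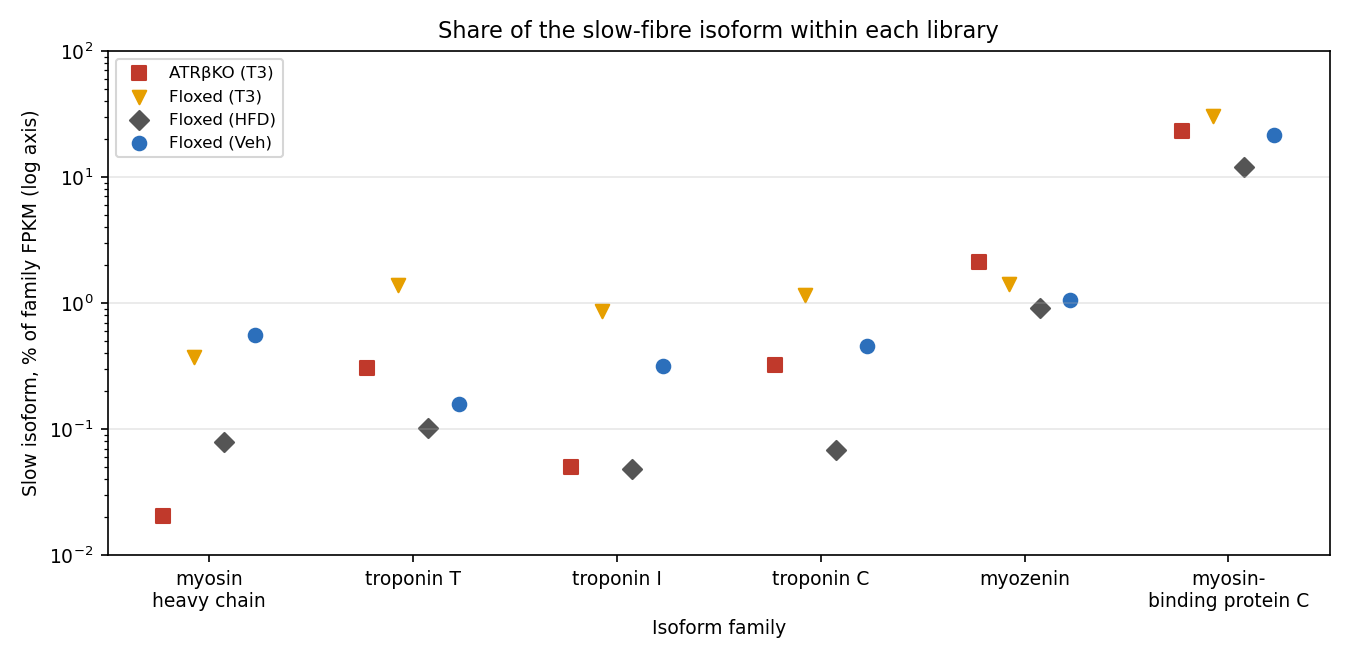
Share of the slow isoform in the summed FPKM of each isoform family, on a log axis, for each of the 4 libraries. Floxed (T3) is the highest library for the 3 troponins and for myosin-binding protein C, Floxed (Veh) for the myosin heavy chains and ATRβKO (T3) for the myozenins.

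Each member was also taken as a share of the summed FPKM of all 35, which asks whether the make-up of the muscle signal was alike when its amount differed. Of the 26 members with a mean of 10 FPKM or more over the 4 libraries, 15 had shares within 1.5-fold of each other and 19 within 2-fold. The high levels of Floxed (HFD) count in that mean. Without that library, Myh1, Ckmt2, Myot and Cacna1s would have a mean under 10 FPKM. Cacna1s reached 10 FPKM nowhere else, with 24.3 FPKM in Floxed (HFD) and 6.73 FPKM or less in the other libraries. The counts above and the range of Myh1 below thus rest partly on Floxed (HFD). The abundant members also set much of the sum, so the steadiness of their shares is partly built in. Actn3 was the steadiest, at 2.08% in the library labelled ATRβKO (T3), 1.91% in Floxed (T3), 2.17% in Floxed (HFD) and 2.18% in Floxed (Veh). Tnni2 lay between 7.70% and 8.81%, Mylpf between 6.79% and 7.95% and Tnnt3 between 11.9% and 14.1%. At the other end, the share of Myh1 ranged 4.47-fold, that of Des 3.54-fold and that of Mb 2.57-fold. Des took 0.928% in the library labelled ATRβKO (T3), 2.13% in Floxed (T3), 0.601% in Floxed (HFD) and 1.02% in Floxed (Veh). Mb took 0.682% in the library labelled ATRβKO (T3), 0.493% in Floxed (T3), 0.418% in Floxed (HFD) and 0.265% in Floxed (Veh). The Des share was thus highest in Floxed (T3), the pool with the least muscle RNA, and the Mb share lowest in Floxed (Veh). Of the 9 members with lower means, 1 (Ryr1) stayed within 1.5-fold, and Myh7 ranged 24.6-fold. Across the 35 genes, the log2 FPKM of any 2 of the 4 libraries had a Pearson correlation between 0.949 and 0.978, a description over genes that span several orders of magnitude.

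**Figure D5:**
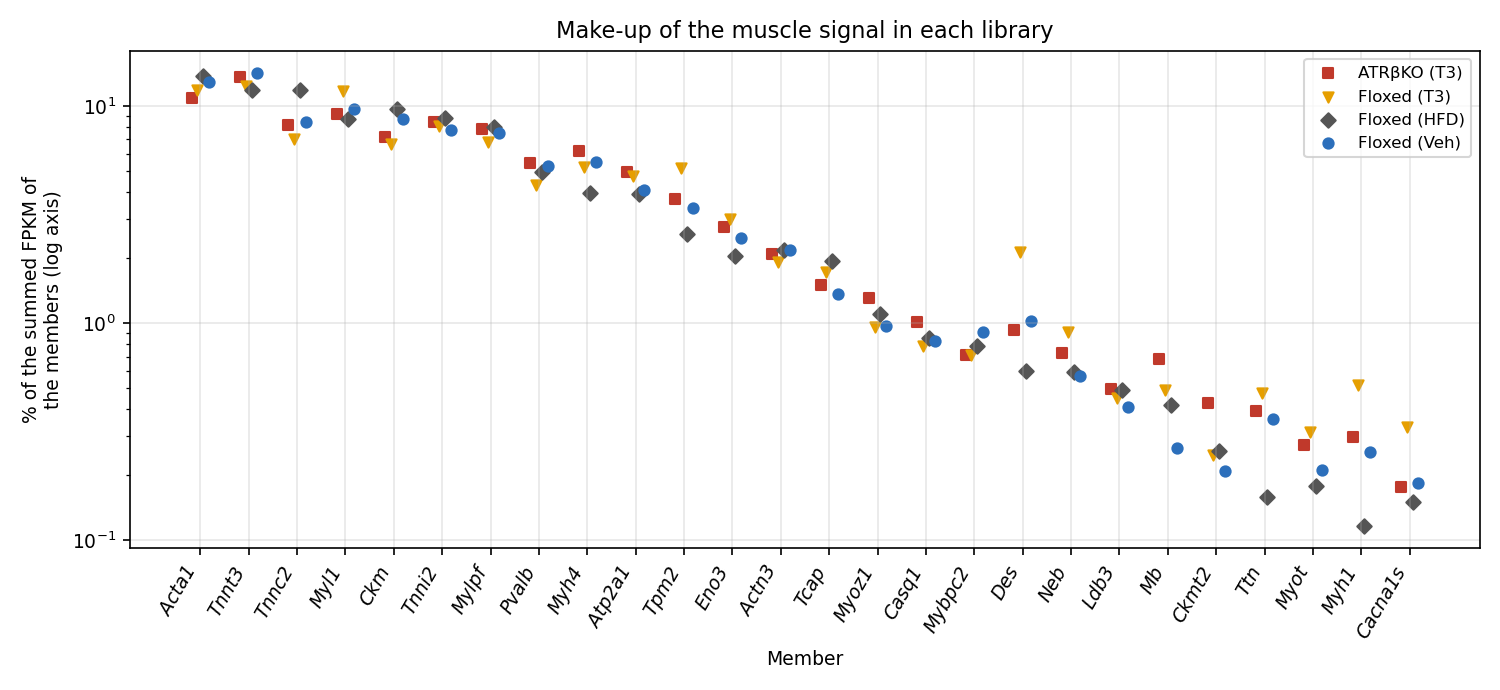
Share of each member with a mean of 10 FPKM or more in the summed FPKM of the 35 members, on a log axis, 1 point per library. Points lie closest for Actn3, between 1.91% and 2.18%. Among the most abundant genes, on the left, those of Tnni2 lie between 7.70% and 8.81% and those of Tnnc2 between 7.05% and 11.8%. Points of Des, Mb, Ttn and Myh1 spread furthest apart.

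The diet library had the most muscle RNA of the 4. Its table may have been normalized separately, so its levels are given without ratios to the others. The members took 2.15% of all FPKM in Floxed (HFD), and 32 of the 35 had their highest level there. That count sets levels of separate tables side by side. How many of all genes were highest in Floxed (HFD) was not counted, so the count has no such share beside it. Acta1 was at 2234 FPKM in Floxed (HFD), Tnnt3 at 1933 FPKM, Tnnc2 at 1919 FPKM and Ckm at 1565 FPKM, and these genes ranked 38, 42, 43 and 54 among all genes of the library. In Floxed (Veh) their ranks were 195 for Acta1, 183 for Tnnt3, 270 for Tnnc2 and 263 for Ckm. Myl1, of the thick filament, ranked 61 in Floxed (HFD) and 244 in Floxed (Veh), and in Floxed (Veh) it stood above Tnnc2 and Ckm. Fast genes in Floxed (HFD) included Tnni2 at 1434 FPKM, Myl1 at 1415 FPKM, Mylpf at 1293 FPKM, Pvalb at 806 FPKM, Myh4 at 644 FPKM, Atp2a1 at 639 FPKM, Actn3 at 353 FPKM, Myoz1 at 178 FPKM, Casq1 at 139 FPKM and Mybpc2 at 128 FPKM. Shared genes included Tpm2 at 419 FPKM, Eno3 at 329 FPKM, Tcap at 312 FPKM, Des at 97.9 FPKM, Neb at 96.85 FPKM, Ldb3 at 79.9 FPKM, Mb at 68.05 FPKM and Ckmt2 at 41.9 FPKM. The slow genes stayed low in this library too. Mybpc1 was at 17.2 FPKM in Floxed (HFD), Tnnt1 at 1.96 FPKM, Myoz2 at 1.65 FPKM, Tnnc1 at 1.32 FPKM, Tnni1 at 0.69 FPKM and Myh7 at 0.53 FPKM.

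Other muscle genes were read from lists chosen with earlier results of these data known. Of 12 further fast-fibre genes past the floor, 7 were lower and 0 higher in Floxed (T3) against Floxed (Veh), with a median log2 ratio of -1.05. In the library labelled ATRβKO (T3) against Floxed (T3), 9 of 13 were higher and 0 lower, with a median of 1.35. Pygm, the muscle glycogen phosphorylase, was at 62.65 FPKM in the library labelled ATRβKO (T3), 16.1 FPKM in Floxed (T3) and 59.2 FPKM in Floxed (Veh). Ampd1, the AMP deaminase of fast fibres, was at 8.06 FPKM in the library labelled ATRβKO (T3), 1.61 FPKM in Floxed (T3) and 9.89 FPKM in Floxed (Veh). Of 24 further sarcomere and triad genes past the floor, 12 were lower and 0 higher in Floxed (T3) against Floxed (Veh), with a median of -0.90, and 13 of 25 were higher and 0 lower in the library labelled ATRβKO (T3) against Floxed (T3), with a median of 1.01. Against Floxed (Veh), the library labelled ATRβKO (T3) had 0 of 13 further fast genes called and 1 of 25 sarcomere and triad genes, Sgca, a sarcoglycan of the fibre membrane, at 6.49 FPKM against 1.53 FPKM.

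Further slow-fibre genes did not move as a block, and several are made outside muscle. Of 7 past the floor, 2 were lower in Floxed (T3) against Floxed (Veh), Myl2 and Pln, and the median log2 ratio was -0.09. In the library labelled ATRβKO (T3) against Floxed (T3), 1 of 7 was higher, Ankrd2, with a median of 0.16. Ankrd2, a stretch-responsive gene of slow fibres, was at 1.23 FPKM in the library labelled ATRβKO (T3), 0.07 FPKM in Floxed (T3) and 0.99 FPKM in Floxed (Veh). Pln, phospholamban, the brake on the slow calcium pump, was at 1.09 FPKM in the library labelled ATRβKO (T3), 0.63 FPKM in Floxed (T3) and 2.45 FPKM in Floxed (Veh). Myl2, the slow and ventricular light chain, was listed at 0 in the library labelled ATRβKO (T3) and in Floxed (T3), and stood at 2.12 FPKM in Floxed (Veh). Atp2a2, the calcium pump of slow fibres that most other cells also make, was at 40.1 FPKM in the library labelled ATRβKO (T3), 42.6 FPKM in Floxed (T3) and 38.8 FPKM in Floxed (Veh). Tpm3, which non-muscle cells share, was at 194.9 FPKM in the library labelled ATRβKO (T3), 158 FPKM in Floxed (T3) and 195 FPKM in Floxed (Veh). Both differed by under 2-fold between any of these pools.

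Genes known to answer to thyroid hormone in muscle can be read beside these. Atp2a1 and Myh7 were both lower in Floxed (T3) than in Floxed (Veh) in plain ratio, at 0.281 and 0.158, and Pln was at 0.257. Ucp3, an uncoupling protein of muscle that fat also makes, went the other way, with 15.7 FPKM in the library labelled ATRβKO (T3), 27.2 FPKM in Floxed (T3) and 15.96 FPKM in Floxed (Veh), under 2-fold between any of these pools. Atp2a2, given above, completes the list and was also under 2-fold. Within a library, Myh7 stood at 0.0215% of the Myh4 level in the library labelled ATRβKO (T3), 0.415% in Floxed (T3), 0.0823% in Floxed (HFD) and 0.598% in Floxed (Veh). Mb stood at 11.0% of the Myh4 level in the library labelled ATRβKO (T3), 9.47% in Floxed (T3), 10.6% in Floxed (HFD) and 4.84% in Floxed (Veh). Ckmt2 stood at 6.92% of the Myh4 level in the library labelled ATRβKO (T3), 4.74% in Floxed (T3), 6.51% in Floxed (HFD) and 3.79% in Floxed (Veh). Relative to Myh4, vehicle was therefore the pool with the most Myh7 and the least Mb and Ckmt2. Whether hormone, genotype or the sampled fibres set these proportions cannot be told apart with 1 pool a group.

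Markers of other cells give the setting. White adipocyte markers, from Adipoq to Retn, were present in all 4 libraries, with sums of 15384 FPKM in the library labelled ATRβKO (T3), 14866 FPKM in Floxed (T3), 30160.0 FPKM in Floxed (HFD) and 14878 FPKM in Floxed (Veh), and 0 of 8 were called in any of the 3 comparisons. Fabp4 made up most of each of these sums, at 10682, 11288, 20059 and 10033 FPKM in the same order. Adipoq came nearest to a call, at log2 ratios of -0.94 in Floxed (T3) against Floxed (Veh) and 0.92 in the library labelled ATRβKO (T3) against Floxed (T3). Of the 8, 7 were below 0 in the first of these comparisons, and 4 were above 0 in the second. Most brown and beige adipocyte markers went the other way from the muscle genes. An exception was Ppargc1a, at 2.02 FPKM in Floxed (T3) against 2.39 FPKM in Floxed (Veh). The sum of the 8 markers was 271 FPKM in the library labelled ATRβKO (T3), 1401 FPKM in Floxed (T3) and 449 FPKM in Floxed (Veh). Of 6 past the floor, 4 were higher in Floxed (T3) against Floxed (Veh). In the library labelled ATRβKO (T3) against Floxed (T3), 5 of 6 were lower. Of the muscle genes, Ckmt2, Mb and Eno3 can also be made by brown or beige fat. They stood lowest in Floxed (T3), where the brown and beige sum was highest.

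Smooth muscle and mural markers summed to 313.5 FPKM in the library labelled ATRβKO (T3), 261.5 FPKM in Floxed (T3) and 304 FPKM in Floxed (Veh), with 0 of 10 called in Floxed (T3) against Floxed (Veh) and 1 higher in the library labelled ATRβKO (T3) against Floxed (T3). In the first of these comparisons 7 were below 0 and 3 above, with a median log2 ratio of -0.44. In the second 7 were above 0 and 3 below, with a median of 0.49. Rgs5, a large part of the sum, was highest in Floxed (T3), at 61.1 FPKM in the library labelled ATRβKO (T3), 90.4 FPKM in Floxed (T3) and 76.7 FPKM in Floxed (Veh). Of the cardiac markers, Myl7 and Nppb were listed at 0 in all 4 libraries and Myh6 in the 3 libraries of the vehicle and T3 table. Of the 8 cardiac genes, 2 were past the floor in each comparison, Tnni3 and Myl4. Tnni3, cardiac troponin I, was at 3.24 FPKM in the library labelled ATRβKO (T3), 0.93 FPKM in Floxed (T3), 1.17 FPKM in Floxed (HFD) and 2.24 FPKM in Floxed (Veh). Tnnt2, cardiac troponin T, was at 0.93 FPKM in the library labelled ATRβKO (T3), 0.05 FPKM in Floxed (T3), 0.17 FPKM in Floxed (HFD) and 0.51 FPKM in Floxed (Veh). Both were lowest in Floxed (T3), and Tnni3 was called higher in the library labelled ATRβKO (T3) against Floxed (T3), at a log2 ratio of 1.14. Ryr2 and Nppa stayed below 1 FPKM in the 3 libraries of the vehicle and T3 table. The embryonic and neonatal myosins Myh3 and Myh8 were at 0.09 FPKM or less in all 4. Actc1, the cardiac and fetal muscle actin, was at 4.59 FPKM in the library labelled ATRβKO (T3), 0.09 FPKM in Floxed (T3), 1.67 FPKM in Floxed (HFD) and 1.47 FPKM in Floxed (Veh), and was called in each of the comparisons of the vehicle and T3 table, with log2 ratios of -1.18 in Floxed (T3) against Floxed (Veh), 2.36 in the library labelled ATRβKO (T3) against Floxed (T3) and 1.18 against Floxed (Veh). Myl4, the atrial and fetal light chain, was at 6.22 FPKM in the library labelled ATRβKO (T3), 5.41 FPKM in Floxed (T3), 41.4 FPKM in Floxed (HFD) and 7.22 FPKM in Floxed (Veh), and was not called in any of these comparisons. Satellite cell genes were at or near 0, with Pax7 at 0.02 FPKM or less and Myf5 at 0.06 FPKM or less. Of 11 myogenic factors and satellite cell genes, 10 were below 1 FPKM in the library labelled ATRβKO (T3), 11 in Floxed (T3), 9 in Floxed (HFD) and 10 in Floxed (Veh). Myf6, the factor of mature fibres, was at 1.89 FPKM in the library labelled ATRβKO (T3), 0.33 FPKM in Floxed (T3), 6.92 FPKM in Floxed (HFD) and 1.15 FPKM in Floxed (Veh), lowest in Floxed (T3) as nearly all members were. Skin and hair markers summed to 6.02 FPKM in the library labelled ATRβKO (T3), 1.3 FPKM in Floxed (T3) and 2.84 FPKM in Floxed (Veh). Only Krt10, of 6, was past the floor, and it was called higher in ATRβKO (T3) against Floxed (T3), at a log2 ratio of 1.22. Mammary epithelium markers summed to 3.54, 2.69 and 2.77 FPKM in the same order. Of 4 denervation and atrophy genes past the floor, Trim63 was called higher in ATRβKO (T3) against Floxed (T3), at 1.53. The part that differences in muscle content of the pools have in any comparison of the members was not tested.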

How the data were processed

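RNA of iWAT went into Illumina TruSeq libraries and was read in pairs on a NovaSeq instrument, as the labels' protocols state. HISAT2, StringTie and GRCm39 are listed, per the submitters' processing notes, with no versions, settings or strand use. The deposited values were taken as FPKM made by the authors. No header states this unit, which was read from decimal values, unequal library sums and the use of StringTie. FPKM depends on the rest of the library, so abundant genes lower all others.

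Log2 ratios were computed only within a table, on FPKM plus 1, with Python 3.11.15, pandas 2.3.3 and numpy 2.4.6, and folds are plain ratios of FPKM. Genes with under 1 FPKM in both libraries were left out of counts and medians. The code was tested on simulated data. Depth is not stated, and intervals were not computed. Approximate fragment numbers took percentile 2 of FPKM times length in single-exon genes as 1 fragment. Genes of at least 300 bases and 0.15 FPKM, with a product under 700, were used, and these cuts shape the numbers. Lengths were those of the longest transcript of GENCODE M21, which is on another build. The fragment numbers cover counting only. The sequences are from RefSeq on GRCm38.p6, where the first listed window of a gene was used. The files give no coordinates.

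All 35 members are accounted for. The isoform families, a set of energy and calcium genes and the 3 largest and 3 smallest log2 ratios of each comparison are given in full, and up to 4 genes of each other list. In the slow-fibre, thyroid hormone and cardiac lists more genes are named, chosen after their values were seen. The members, lists and rules were chosen with earlier results of these data known. Alternatives were other pseudocounts, floors, folds and scalings, and leaving out members also made in fat. The library labelled ATRβKO (HFD) was left out of comparisons because it stands apart.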

Additional observations from a re-analysis of the deposited data

Results flagged for a closer look

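The library labelled ATRβKO (HFD) enters no comparison, and 3 members stood out in it by lying at least 2-fold above Floxed (HFD). Tnni1, slow troponin I, was at 6.25 FPKM in the library labelled ATRβKO (HFD), against 0.69 FPKM in Floxed (HFD). Tnnc1, the troponin C of slow and heart muscle, was at 5.76 FPKM in the library labelled ATRβKO (HFD), against 1.32 FPKM in Floxed (HFD). Actn2, the α-actinin of all fibres, was at 19.2 FPKM in the library labelled ATRβKO (HFD), against 6.54 FPKM in Floxed (HFD). In the same library 26 members were at least 2-fold lower, and Ckmt2, Mb, Mybpc1 and Myoz2 were listed at 0. Over all 17711 genes past the floor, 47.7% were higher and 32.0% lower, so a call there says little about a single gene.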

How the results depend on the processing

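No paired analysis was possible because each group has 1 library. No member called by the 2-fold rule changed sign under any alternative run, but ratios near 0 did under rescaling. Tnnt1 in the library labelled ATRβKO (T3) against Floxed (T3) was at 0.02 on the log2 scale, and at -0.098 and -0.10 with rescaling to a median of 0 and TMM rescaling, and Tnnt3, Tnnc2 and, with TMM rescaling only, Actn3 against Floxed (Veh) changed sign within 0.04 of 0. In Floxed (T3) against Floxed (Veh), 27 members were lower, and 18 to 31 were under the alternatives other than a 4-fold rule, which left 9. In the library labelled ATRβKO (T3) against Floxed (T3), 26 were higher, and 21 to 30 under the alternatives other than a 4-fold rule, which left 13. Shares of all genes called were computed for the main rule only, so these counts have no such share beside them. The members used also differed between settings, from 27 to 35 in the first of these comparisons and from 26 to 35 in the second. The median log2 ratio of the members lay between -1.82 and -1.35 for T3 in floxed mice and between 1.58 and 2.02 for genotype under T3. Rescaling to a median log2 ratio of 0 over all genes takes off their shifts of -0.21 and 0.18 and left member medians of -1.498 and 1.75. The difference of the slow and fast medians was 1.37 and -1.67, and with a floor of 5 FPKM it was 0.69 and -0.96, where only Mybpc1 is left in the slow class. In the library labelled ATRβKO (T3) against Floxed (Veh), 1 member was higher, and 3 were with a pseudocount of 0.1 FPKM, 2 with rescaling to a median log2 ratio of 0, with TMM rescaling or with a 1.5-fold rule, and 0 with a 4-fold rule or without the members also made in fat. The members lower were 2, and 0 with a pseudocount of 5 FPKM, a floor of 5 FPKM or a 4-fold rule. The SD of the members' log2 ratios in that comparison was 0.46, and 0.79 and 0.29 with pseudocounts of 0.1 and 5 FPKM. With 1 FPKM added to each isoform, the median slow share was 0.573% in the library labelled ATRβKO (T3), 2.46% in Floxed (T3), 0.190% in Floxed (HFD) and 0.890% in Floxed (Veh), in the same order of libraries as without it, but the highest share moved to Floxed (T3) for myosin heavy chain, at 2.17% against 1.01% in Floxed (Veh), and for myozenin, at 10.65%. Low depth at the slow genes limits what their shares can show.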
